A study of Schizosaccharomyces pombe with 12 samples.

Results

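Fission yeast cells (Schizosaccharomyces pombe) carrying the thermosensitive allele mis4-367 were compared with cells carrying wild-type mis4+ at 25 °C, the permissive temperature, before any heat was applied. The comparison rests on the 3 arrays titled mis4-367 25 °C and the 3 titled mis4+ 25 °C, which are 6 of the 12 arrays of the series, chosen by their titles alone. The other 6 arrays hold the same strains after 2 h at 37 °C. It is described across 2896 genes, each read from 1 probe set, the brightest over the 12 arrays where a gene had several.

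The series asks which transcripts depend on the cohesin loader Mis4 in cells that are not dividing. The genotypes were h- ura4+-pREP2-res1 mis4+ and h- ura4+-pREP2-res1 mis4-367, so the mating type h- and the plasmid were shared by all groups. The plasmid yields a C-terminal fragment of Res1 once thiamine is withdrawn, which titrates the transcription factor Cdc10, and cells of both strains stopped dividing in G1 after 7 doublings at 25 °C without thiamine. Each strain was grown from 3 independent inoculates, and each sample of total RNA was hybridised to 1 array. The labels do not say how many isolates stand for each strain.

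Cohesin is a ring built from the SMC proteins Psm1 and Psm3, the kleisin Rad21 and an accessory subunit such as Psc3. The complex of Mis4 and Ssl3 places the ring on chromatin, Pds5 and Wpl1 act in its release, and Eso1 acetylates it when DNA is replicated. Before replication a chromosome has no sister to be held to, and cohesin on G1 chromatin is known for shaping chromosome loops and for effects on transcription.

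The 6 arrays at 25 °C were alike, with median intensities of 400 to 409 over the genes and a median standard error of 0.065 for a log2 difference between the strains. The SD over genes of an array's deviation from its fellow replicates was 0.065 to 0.103 at 25 °C and 0.091 to 0.202 at 37 °C, where replicate 3 of mis4+ had the highest value. That array does not enter any mean at 25 °C, but it enters the spread per gene, which limma (moderated linear models with an empirical Bayes prior) estimated over all 12 arrays. Levels below are log2 intensities, changes are mis4-367 minus mis4+ on the log2 scale, and a gene is said to have fallen or risen where its Benjamini-Hochberg adjusted p over the 2896 genes was under 0.05. A probe set at or below 3.42, the background level defined by probe sets of another yeast on the same array, was counted as not detected.

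At 25 °C 18 genes (0.622%) were lower in mis4-367 and 0 were higher. The alpha-galactosidase gene mel1 differed by 2.22-fold and the spore wall gene meu10 by 1.55-fold. Both are dim, and with 16 added to each intensity before log2 their changes were -0.64 for mel1 (limma adjusted p = 9.62e-05) and -0.32 for meu10 (limma adjusted p = 0.0546), against -1.15 and -0.63 without it. The other 16 genes differed by 1.18- to 1.48-fold, among them the M-factor pheromone gene mfm3, the meiotic axis gene rec10, the sporulation septin gene spn6 and the stress genes tms1 and ish1. An unadjusted p under 0.05 was reached by 290 genes in the lower direction (10%) and by 39 in the higher direction (1.35%). All 18 genes had 3 mis4-367 arrays below all 3 mis4+ arrays, an arrangement found for 692 genes (23.9%) in that direction and for 256 (8.84%) in the opposite one. Of all genes 65% lay below 0. These shares over all genes are the ones to set beside each count in a gene list below.

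The count depends on which arrays give the spread. With limma on the 6 arrays at 25 °C alone, 140 genes (4.83%) were lower and 14 (0.483%) higher, and these included all 18. With replicate 3 of mis4+ at 37 °C left out, 97 were lower and 5 higher, again including all 18. Leaving out 1 array at 25 °C lowered the count to between 5 and 14. It was 11, 5 and 5 without mis4+ replicates 1, 2 and 3, and 5, 7 and 14 without mis4-367 replicates 1, 2 and 3, with 0 genes higher each time. The genes mel1, tms1, but1 and mfm3 kept their call with each of the 6 arrays left out in turn.

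**Figure D1:**
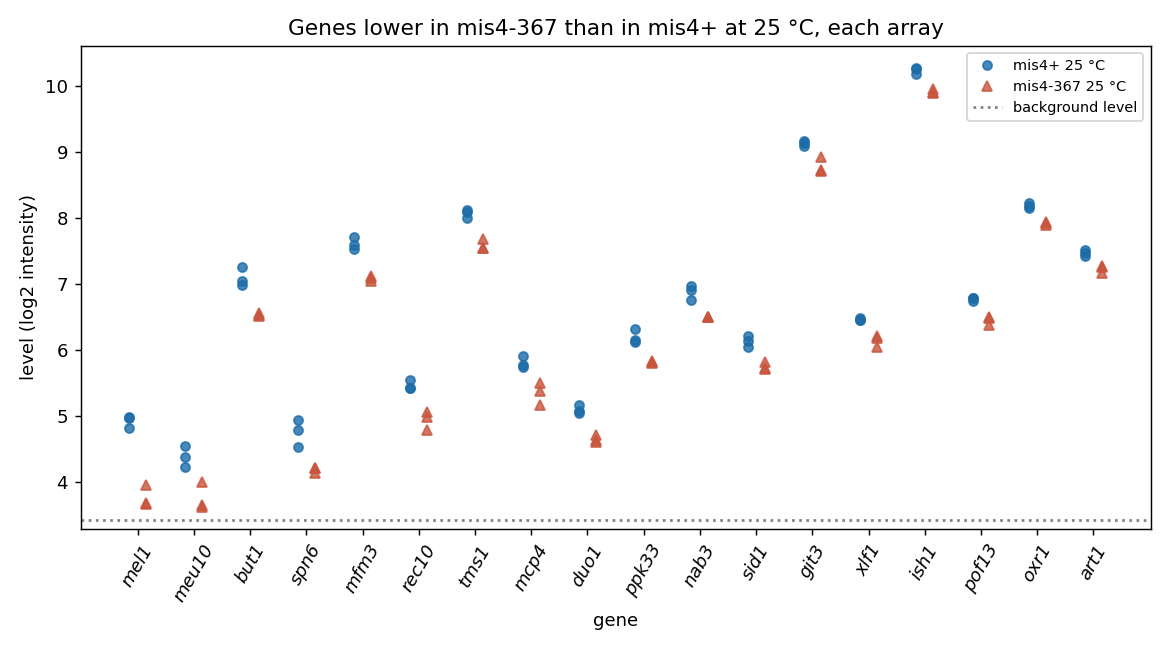
Level of the 18 genes lower in mis4-367, 1 point per array at 25 °C (circles, mis4+; triangles, mis4-367; log2 intensity), ordered by the size of the change, with the background level of 3.42 as a dotted line. In every gene the 3 mis4-367 points lie below the 3 mis4+ points, and mel1, meu10 and spn6 lie nearest to the background level.

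The gene that differed most was mel1 (SPAC869.07C), which encodes a secreted alpha-galactosidase. Its level was 4.98, 4.98 and 4.81 in the 3 mis4+ arrays and 3.67, 3.96 and 3.68 in the 3 mis4-367 arrays. The lowest mis4+ array stood 0.86 above the highest mis4-367 array and this was the widest gap among the 18 genes, although both groups were dim. The change was -1.15 ± 0.08 (SE, adjusted p = 1.58e-05). The other 5 measured galactose genes, among them gal10 (-0.12, adjusted p = 0.661) and uge1 (0.06, adjusted p = 0.75), which act in galactose metabolism, did not pass. By gene order mel1 is the 24th gene from an end of chromosome I, and it was the 1 gene to fall among 32 measured of the 160 outermost genes of chromosomes I and II. The median of those 32 was -0.029, as for all genes.

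Other sugar and glucose genes showed wide differences that did not pass. The gluconeogenesis gene fbp1 read 7.19, 6.99 and 7.13 in mis4+ and 6.35, 6.53 and 6.92 in mis4-367, without overlap (-0.50 ± 0.13, SE, adjusted p = 0.0996). The zinc finger gene rsv1 read 7.22, 6.19 and 6.65 in mis4+ and 5.84, 5.86 and 6.63 in mis4-367, so that 1 mis4-367 culture lay within the mis4+ range (-0.58 ± 0.23, SE, adjusted p = 0.346). None of the 20 measured genes of hexose transport and gluconeogenesis passed in limma, 4 had an unadjusted p under 0.05, all lower, and their median was -0.05.

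The glucose receptor gene git3 (SPCC1753.02C), which feeds the cAMP pathway, did fall. Its level was 9.17, 9.14 and 9.09 in mis4+ and 8.71, 8.74 and 8.92 in mis4-367. The mis4+ arrays lay close together (SD 0.04) and replicate 3 of mis4-367 came nearest to them, with a gap of 0.18 (change -0.35 ± 0.07, SE, adjusted p = 0.0409). The adenylate cyclase gene cyr1, of the same pathway, lay on the other side of 0, at 0.21 ± 0.06 (SE, adjusted p = 0.121), with all 3 mis4-367 arrays above the mis4+ arrays.

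Cells of mating type h- are M cells, which make the M-factor pheromone and receive the P-factor of h+ cells. Of 8 measured M-cell genes 1 fell, mfm3 (SPBPJ4664.03), which encodes an M-factor precursor. It read 7.71, 7.54 and 7.59 in mis4+ and 7.12, 7.05 and 7.10 in mis4-367. The groups were separated by 0.42, more than the range within either (change -0.53 ± 0.08, SE, adjusted p = 0.00961). Its probe set is marked as shared between sequences, so its signal may include related transcripts.

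The other M-factor precursor genes did not pass. The level of mfm1 was 11.36, 10.91 and 11.06 in mis4+ and 10.64, 10.80 and 10.96 in mis4-367, overlapping, with a change of -0.31 ± 0.13 (SE, adjusted p = 0.357). That of mfm2 was 0.03 higher in mis4-367 on average (adjusted p = 0.916). The carboxypeptidase gene sxa2, which degrades P-factor, read 6.72 to 6.75 in mis4+ and 6.40 to 6.48 in mis4-367 without overlap, and did not pass (-0.29, adjusted p = 0.125).

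Of the 8 M-cell genes 7 lay below 0, with a median of -0.21, where 65% of all genes lay below 0 with a median of -0.029. The mean over the 8 genes was 8.74 to 8.88 in the mis4+ arrays and 8.51 to 8.67 in the mis4-367 arrays. After quantile normalization over the S. pombe genes 7 of 8 were still below 0, with a median of -0.15. In that setting 1428 of all 2896 genes were below 0, with a median of 0.001. It gives all arrays the same distribution of values over these genes, so an all-gene median near 0 follows from the method. The 5 measured P-cell genes were all above background in both strains, as shown by the pheromone gene map2 at 6.05 and the protease gene sxa1 at 11.1 in mis4+. Their mean was 7.70 to 7.71 in mis4+ and 7.55 to 7.71 in mis4-367, and 0 of them passed in limma (1 had an unadjusted p under 0.05). In bulk samples such as these, fewer cells expressing a gene and less RNA of it per cell cannot be told apart.

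Mating and early meiosis are switched on by nitrogen starvation and pheromone through a MAP kinase cascade and the transcription factor Ste11. Of 30 measured genes of pheromone response and mating 1 fell (mfm3), 25 lay below 0, and the median was -0.14. The gene of the MAP kinase kinase kinase Byr2 was just outside the threshold. It read 7.29, 7.39 and 7.27 in mis4+ and 7.07, 7.09 and 7.04 in mis4-367 without overlap (-0.25 ± 0.05, SE, adjusted p = 0.0557). The gene of the pheromone signal regulator Rgs1 was at -0.38 (adjusted p = 0.0996), also without overlap. The level of ste11 was 9.72, 9.51 and 9.46 in mis4+ and 8.99, 9.21 and 9.53 in mis4-367, so the groups overlapped (-0.32 ± 0.13, SE, adjusted p = 0.341). After quantile normalization the list's median was -0.06, with 21 of 30 below 0.

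Of the 18 genes 4 belong to meiosis and spore formation, namely meu10, spn6, mcp4 and rec10. The gene meu10 (SPCC1223.12C), needed for the maturation of the spore wall, read 4.39, 4.55 and 4.23 in mis4+ and 3.63, 3.65 and 4.0 in mis4-367. The mis4-367 arrays were close to background, and the groups were separated by 0.23 (change -0.63 ± 0.12, SE, adjusted p = 0.042). The septin gene spn6 (SPCC188.12), of the septin ring that guides the forespore membrane, read 4.54, 4.95 and 4.79 in mis4+ and 4.14, 4.22 and 4.22 in mis4-367. The mis4-367 arrays lay close together (SD 0.05) and below all mis4+ arrays (change -0.56 ± 0.09, SE, adjusted p = 0.0198).

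The septins that act with Spn6 in spore formation did not pass, with changes of 0.08 for spn5 (adjusted p = 0.882) and -0.04 for spn7 (adjusted p = 0.9). Of 7 measured septins spn6 alone passed in limma, and their median was -0.009, with 5 below 0 (0.012, with 2 below 0, after quantile normalization). The gene mcp4 (SPBC16E9.08), which encodes a coiled-coil protein of the forespore membrane, read 5.75, 5.92 and 5.78 in mis4+ and 5.50, 5.39 and 5.17 in mis4-367. The spread was wider in mis4-367 (SD 0.17) than in mis4+ (SD 0.09), without overlap (change -0.46 ± 0.08, SE, adjusted p = 0.0237). Over 24 measured genes of sporulation and spore wall 3 fell and 20 lay below 0, with a median of -0.056. After quantile normalization 13 of 24 lay below 0, with a median of -0.005, and meu10, spn6 and mcp4 no longer passed. The mean over the 24 was 6.75 to 6.82 in mis4+ and 6.64 to 6.66 in mis4-367.

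Of 23 measured genes of meiotic recombination 1 fell, rec10 (SPAC25G10.04C), which encodes a component of linear elements, the axial structures on which fission yeast meiotic breaks form. It read 5.43, 5.55 and 5.43 in mis4+ and 4.99, 5.06 and 4.78 in mis4-367, a gap of 0.37 between the groups (change -0.53 ± 0.09, SE, adjusted p = 0.0237). The recombinase gene dmc1 (-0.34, adjusted p = 0.186) and the break formation gene rec6 (-0.26, adjusted p = 0.186) had groups without overlap and did not pass. The median of the list was -0.12, with 17 of 23 below 0, and after quantile normalization -0.001, with 13 below 0. Among 14 measured genes of meiotic entry and meiotic mRNA elimination 0 passed in limma and 0 had an unadjusted p under 0.05. Below 0 lay 13 of the 14, with a median of -0.099 (10 and -0.022 after quantile normalization). The genes of the meiotic cohesin subunit Rec8 (0.10, adjusted p = 0.647) and its partner Moa1 (0.03, adjusted p = 0.93) were not above background.

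Mitosis and septation genes included 1 that fell among 30 measured, sid1 (SPAC9G1.09), a kinase gene of the septation initiation network, which times cytokinesis. Its level was 6.05, 6.22 and 6.14 in mis4+ and 5.72, 5.82 and 5.74 in mis4-367. The groups were 0.24 apart, more than the range within either (change -0.38 ± 0.06, SE, adjusted p = 0.0198). The NIMA kinase gene fin1 read 8.17, 8.28 and 8.39 in mis4+ and 7.89, 7.86 and 7.86 in mis4-367 (-0.41 ± 0.10, SE, adjusted p = 0.0884). The gene slp1, whose product activates the anaphase promoting complex, stood at -0.27 (adjusted p = 0.0862). Neither passed, though neither overlapped, and both passed with the 6 arrays at 25 °C alone (adjusted p = 0.0144 for fin1 and 0.0147 for slp1). The list's mean was 8.07 to 8.09 in mis4+ and 7.97 to 7.99 in mis4-367. Its median of -0.092, with 25 of 30 below 0, became -0.009 with 17 below 0 after quantile normalization.

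Kinetochore genes gave 1 further gene that fell, duo1 (SPBC32F12.08C), a subunit of the DASH complex that couples kinetochores to microtubules. It read 5.08, 5.17 and 5.04 in mis4+ and 4.71, 4.60 and 4.64 in mis4-367, 0.33 apart (change -0.45 ± 0.08, SE, adjusted p = 0.0237). All 8 measured DASH genes lay below 0, with a median of -0.14, and dad5 came next (-0.28, adjusted p = 0.0956). After quantile normalization 4 of the 8 lay below 0 and the median was -0.006. Of 33 measured genes of other kinetochore and centromere proteins 0 passed in limma, and the median was -0.11 (0.002 after quantile normalization). An unadjusted p under 0.05 was reached by 5, all lower, beside 10% of all genes in that direction. The smallest p of these was that of mis13 (-0.29, adjusted p = 0.0884).

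Markers of cells outside G1 were detected in both strains, and no array of dividing cells was available for comparison. Most histone genes are transcribed in S phase. The mean over 11 histone genes, a list that includes the variant genes cnp1 and pht1, was 10.21 to 10.23 in mis4+ and 10.20 to 10.27 in mis4-367, overlapping. In limma 0 of the 11 passed, with 1 at an unadjusted p under 0.05. Of 23 measured genes of the MBF complex, its regulators and its Cdc10-dependent targets of G1 and S phase, 0 passed in limma. An unadjusted p under 0.05 was reached by 3 of the 23, all lower. The mean over the 23 was 8.06 to 8.08 in mis4+ and 7.95 to 8.0 in mis4-367. Below 0 lay 21 of 23, with a median of -0.084, and after quantile normalization 16 of 23, with a median of -0.020. The MBF subunit gene res2 was at -0.31 (adjusted p = 0.216) and the replication licensing gene cdt1 at -0.35 (adjusted p = 0.229). The part that a difference in cell cycle state has in the results was not tested.

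Of 24 measured effectors of the core stress response 2 fell, beside 0.622% of all genes. The gene tms1 (SPBC1773.05C), a predicted hexitol dehydrogenase induced by stress, read 8.01, 8.09 and 8.12 in mis4+ and 7.54, 7.54 and 7.68 in mis4-367. The SDs were 0.06 and 0.08 and the groups were 0.32 apart (change -0.48 ± 0.06, SE, adjusted p = 0.00389). The gene ish1 (SPBC365.12C), which encodes a nuclear envelope protein of stationary phase and stress, read 10.28, 10.26 and 10.18 in mis4+ and 9.89, 9.91 and 9.96 in mis4-367. All mis4-367 arrays were lower, by at least 0.22 (change -0.32 ± 0.05, SE, adjusted p = 0.0224).

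The glutathione transferase gene gst1 was at -0.38 (adjusted p = 0.0647) and did not pass. The list's median was -0.067, with 17 of 24 below 0, and after quantile normalization it was -0.061 with the same number below 0. Among 17 measured genes of the Sty1 kinase pathway, which drives the stress response, 0 passed in limma and 1 had an unadjusted p under 0.05, the kinase kinase gene wis1 (-0.22, adjusted p = 0.279). Among 15 measured heat shock genes 0 passed in limma and 1 had an unadjusted p under 0.05. This was the small heat shock protein gene hsp16, at 11.88, 11.85 and 11.87 in mis4+ and 11.59, 11.61 and 11.73 in mis4-367 (-0.23 ± 0.05, SE, adjusted p = 0.0846). The median of the heat shock genes was 0.016, on the other side of 0 after quantile normalization (-0.002).

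The remaining 7 of the 18 genes have roles outside these groups. The gene but1 (SPAC27D7.12C), whose product binds Uba3, the activating enzyme of the ubiquitin-like protein Ned8, read 6.99, 7.27 and 7.05 in mis4+ and 6.56, 6.52 and 6.53 in mis4-367. The mis4-367 arrays were nearly equal (SD 0.02) and all below the mis4+ arrays (change -0.57 ± 0.08, SE, adjusted p = 0.00961). The kinase gene ppk33 (SPCC162.10) read 6.13, 6.32 and 6.16 in mis4+ and 5.80, 5.84 and 5.82 in mis4-367 (change -0.38 ± 0.06, SE, adjusted p = 0.0107). It was the 1 gene to fall among 22 measured kinases with ppk names, of which 20 lay below 0 with a median of -0.08 (15 and -0.038 after quantile normalization).

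The gene nab3 (SPAC3H8.09C), a homolog of a budding yeast nuclear RNA-binding protein, stood at 6.88 ± 0.11 (SD, n = 3) in mis4+ and at 6.50, 6.50 and 6.51 in the mis4-367 arrays (change -0.38, limma adjusted p = 0.0248). The end-joining factor gene xlf1 (SPCC24B10.14C) and the F-box protein gene pof13 (SPBC1271.01C) both changed by -0.32 (adjusted p = 0.0237 for each). The gene oxr1 (SPAC8C9.16C), of the oxidation resistance family, changed by -0.27 (adjusted p = 0.0237), and art1 (SPBC19G7.08C) by -0.24 (adjusted p = 0.0468), the smallest change of the 18. In each of these 5 genes the mis4-367 arrays were all below the mis4+ arrays, by gaps of 0.15 to 0.26.

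The cohesin genes themselves did not pass. The level of mis4 was 7.99, 8.04 and 8.12 in mis4+ and 7.98, 7.93 and 7.86 in mis4-367 (-0.13 ± 0.07, SE, adjusted p = 0.525). The arrays of the strains touched but did not overlap, and since the allele acts on the protein, the mRNA level is no check of the labels. Its partner gene ssl3 was at -0.01, the ring genes psm1, psm3 and rad21 at 0.01, -0.04 and -0.09, and psc3 at -0.08, with adjusted p of at least 0.44. The release genes pds5 and wpl1 were at -0.06 and 0.02 and the acetyltransferase gene eso1 at 0.09, with adjusted p of at least 0.515. Of 11 measured cohesin genes 0 passed in limma and 0 had an unadjusted p under 0.05, and their median was -0.037 (0.005 after quantile normalization).

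The res1 probe set, which may or may not read the plasmid's fragment, stood at 10.72, 10.74 and 10.79 in mis4+ and 10.87, 10.90 and 10.96 in mis4-367. All 3 mis4-367 arrays were higher, and the change of 0.16 ± 0.09 (SE) did not pass (adjusted p = 0.558). The gene of its partner Cdc10 was at -0.11 (adjusted p = 0.586). Whether the strength of the arrest differed between the strains was not tested. Thiamine-regulated genes, 9 measured, had 0 that passed in limma and 1 with an unadjusted p under 0.05, and a median of 0.012.

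Among 34 measured genes of heterochromatin and telomere silencing 0 passed in limma, 6 had an unadjusted p under 0.05 in the lower and 1 in the higher direction, and 28 lay below 0. Over all genes these shares were 10%, 1.35% and 65%. The telomere protein gene rap1 read 6.99, 7.06 and 7.08 in mis4+ and 6.65, 6.65 and 6.69 in mis4-367. The groups were 0.31 apart, and the gene missed the threshold (-0.38 ± 0.08, SE, adjusted p = 0.0557). The histone methyltransferase gene clr4 (-0.30, adjusted p = 0.132) and the Argonaute-binding gene arb1 (-0.24, adjusted p = 0.0884) likewise did not overlap. All 3 passed with the 6 arrays at 25 °C alone (adjusted p = 0.011 for rap1, 0.0419 for clr4 and 0.0144 for arb1). In that setting 6 of the 34 genes were lower, beside 4.83% of all genes. The list's median was -0.088, and 0.003, with 15 of 34 below 0, after quantile normalization, where 0 genes of the list were lower by limma.

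**Figure D2:**
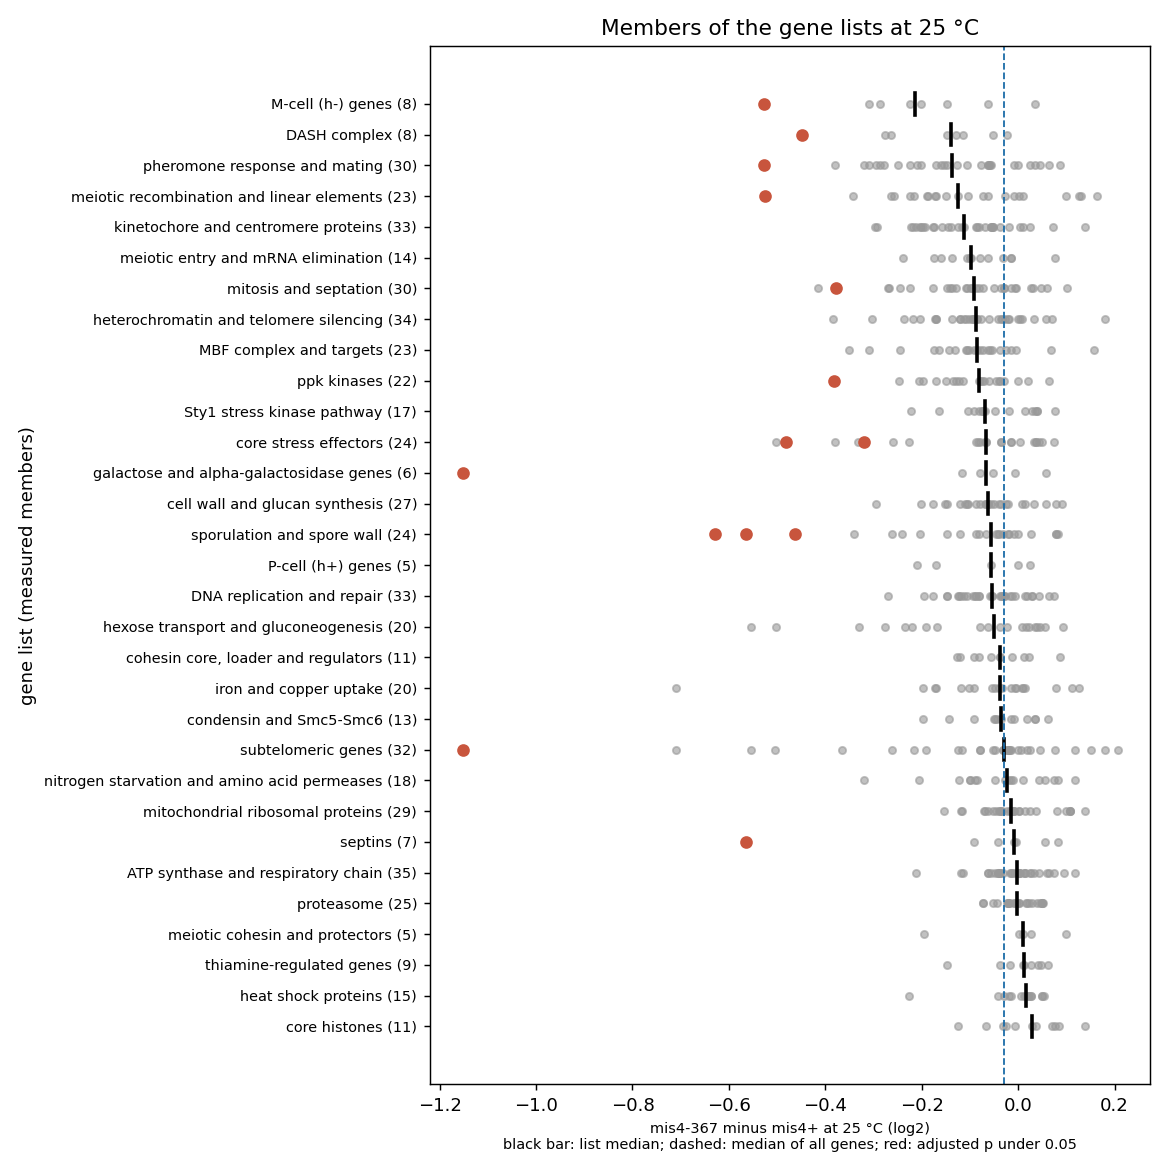
Change at 25 °C (mis4-367 minus mis4+, log2) of each measured member of 31 gene lists, 1 point per gene (red, adjusted p under 0.05; grey, other), with the list median as a black bar and the median of all genes, -0.029, as a dashed line; the 2 largest lists (ribosomal proteins; mug, meu and mcp genes) are left out. M-cell genes have the lowest median, at -0.21, and core histones the highest, at 0.028. After quantile normalization these medians were -0.15 and 0.015.

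Of 118 measured cytosolic ribosomal protein genes 101 lay above 0, with a median of 0.028, while 0 passed in limma and 2 had an unadjusted p under 0.05. After quantile normalization 67 of 118 lay above 0 and the median was 0.005. No gene of the whole table rose by the test, and the 5 with the largest differences upwards were smd1, los1, cyr1, cog6 and cao2, at 0.21 to 0.25. The splicing Sm protein gene smd1 read 9.02, 8.96 and 9.03 in mis4+ and 9.19, 9.23 and 9.34 in mis4-367 (0.25 ± 0.06, SE, adjusted p = 0.0884). The tRNA export gene los1 read 9.03, 9.06 and 8.94 in mis4+ and 9.20, 9.20 and 9.28 in mis4-367 (0.22, adjusted p = 0.136). Neither gene overlapped between the strains, and both were higher by limma on the 6 arrays at 25 °C alone (adjusted p = 0.0305 for smd1 and 0.0346 for los1).

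The iron and heme transport gene str3 had the second largest difference in the table and did not pass. It read 6.63, 6.15 and 5.90 in mis4+ and 5.27, 5.61 and 5.67 in mis4-367, without overlap, and the gap of 0.23 was smaller than the range within either strain (-0.71 ± 0.24, SE, adjusted p = 0.229). Of 20 measured genes of iron and copper uptake 0 passed in limma, with 3 lower and 1 higher at an unadjusted p under 0.05, and the median was -0.037 (0.009 after quantile normalization).

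The size and sign of the differences moved with the brightness of the probe set. When the genes were divided into 4 equal groups of 724 by their mean level over 12 arrays, the median change was -0.10 in the dimmest, -0.052 and -0.017 in the next groups, and 0.012 in the brightest. The share of genes below 0 fell from 84.1% in the dimmest group to 40.5% in the brightest. Of the 18 genes that fell 14 were in the dimmest group, 2 in each of the next, and 0 in the brightest. After quantile normalization over the S. pombe genes alone the median was between -0.00029 and 0.0014 in every group. This normalization gives all arrays the same distribution over these genes, so medians near 0 in the level groups are largely set by it. By limma 3 genes remained lower, mel1 (-0.91), tms1 (-0.38) and mfm3 (-0.44). The dim genes spn6, rec10 and mcp4 were at -0.25, -0.26 and -0.25 in that setting, and did not pass. There 315 genes had mis4-367 arrays all below and 364 all above the mis4+ arrays, against 692 and 256 before. Re-centring each array on its median left 19 genes lower, 16 of them among the 18. Of the 23 measured meiotic recombination genes, 21 were in the dimmest group, and their median was -0.12. All 5 measured genes of meiotic cohesin and its protectors were also in the dimmest group, with 1 below 0 and a median of 0.01. What underlies the change with brightness was not tested.

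**Figure D3:**
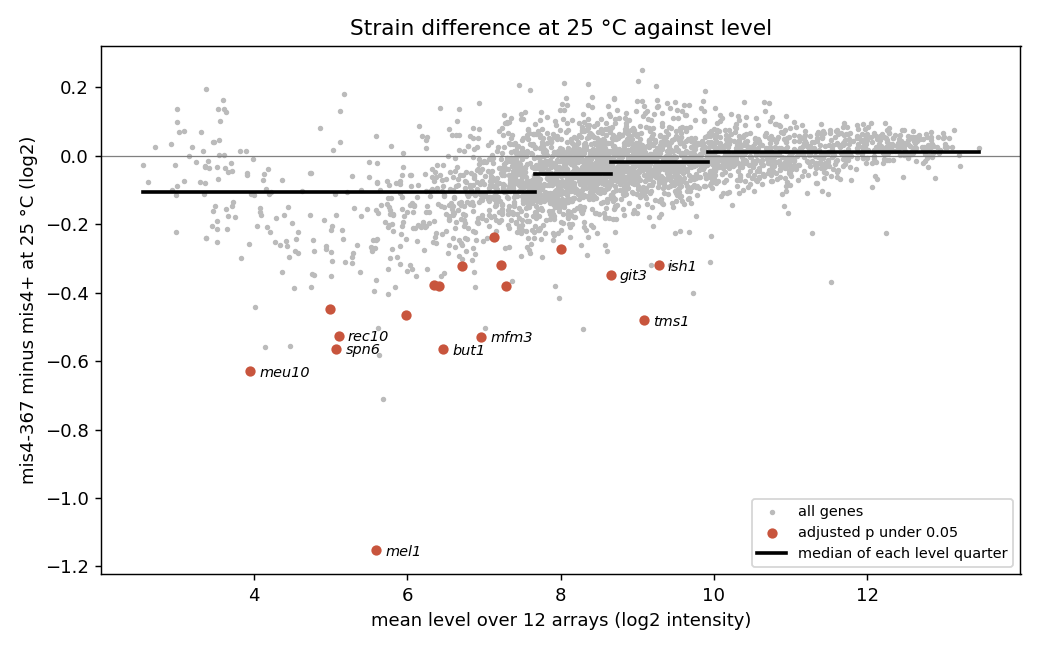
Change at 25 °C (mis4-367 minus mis4+, log2) against the mean level over 12 arrays (log2 intensity), 1 point per gene, with the 18 genes of adjusted p under 0.05 in red and the median of each of the 4 level groups as a black line. The medians run from -0.10 in the dimmest group to 0.012 in the brightest, and mel1 lies apart from all other genes.

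After 2 h at 37 °C the same strains differed in more genes, 158 lower (5.46%) and 50 higher (1.73%) in mis4-367 by the same test. Of the 18 genes lower at 25 °C 12 were also lower at 37 °C, which is 66.7% of the 18 and 7.59% of the 158. All 18 lay below 0 at 37 °C, where 65.2% of all genes did, and 13 had 37 °C arrays without overlap in that direction, as 17.3% of all genes did. The groups at 25 °C and 37 °C are different arrays of the same strains, and they may come from the same inoculates. The spread per gene is shared by both tests. The median change of the 18 was -0.41 at 25 °C, where they were chosen, and -0.28 at 37 °C, and 13 of them had a smaller difference at 37 °C.

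Some of the 18 differed as much after the shift as before it. The change was -0.57 and -0.61 for but1, -0.56 and -0.63 for spn6, -0.53 and -0.62 for mfm3, and -0.53 and -0.52 for rec10, at 25 °C and 37 °C in turn. These 4 genes moved in different ways with heat in mis4+, since spn6 rose by 1.24 after the shift while but1 fell by 0.67 and mfm3 by 0.73. The gene git3 was likewise at -0.35 and -0.45, and ish1 at -0.32 and -0.25, although the shift lowered ish1 in mis4+ from 10.24 to 8.60.

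In other genes the difference between the strains was smaller at 37 °C than at 25 °C. The stress gene tms1 rose in mis4+ from 8.07 to 10.37 and in mis4-367 from 7.59 to 10.34, so that the change of -0.48 at 25 °C was followed by -0.03 at 37 °C (adjusted p = 0.71). The kinase gene sid1 went from -0.38 to -0.03 (adjusted p = 0.791 at 37 °C) and mcp4 from -0.46 to -0.13 (adjusted p = 0.328). The gene mel1 rose from 3.77 to 6.58 in mis4-367 and from 4.92 to 7.12 in mis4+, and its change went from -1.15 to -0.53 (adjusted p = 0.00517 at 37 °C).

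The difference between the strain differences at 37 °C and 25 °C was tested for every gene, and 0 of 2896 passed in limma. An unadjusted p under 0.05 was found for 141 genes (4.87%). The smallest adjusted p was 0.125, shared by mel1 (0.62 ± 0.11, SE) and tms1 (0.45 ± 0.08, SE), and sid1 followed among the 18 (0.35, adjusted p = 0.732). Without replicate 2 of mis4-367 at 25 °C, mel1 alone passed this test. With all arrays, a smaller difference at 37 °C was therefore not shown for mel1, tms1, sid1 or mcp4 by the test of the difference itself.

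**Figure D4:**
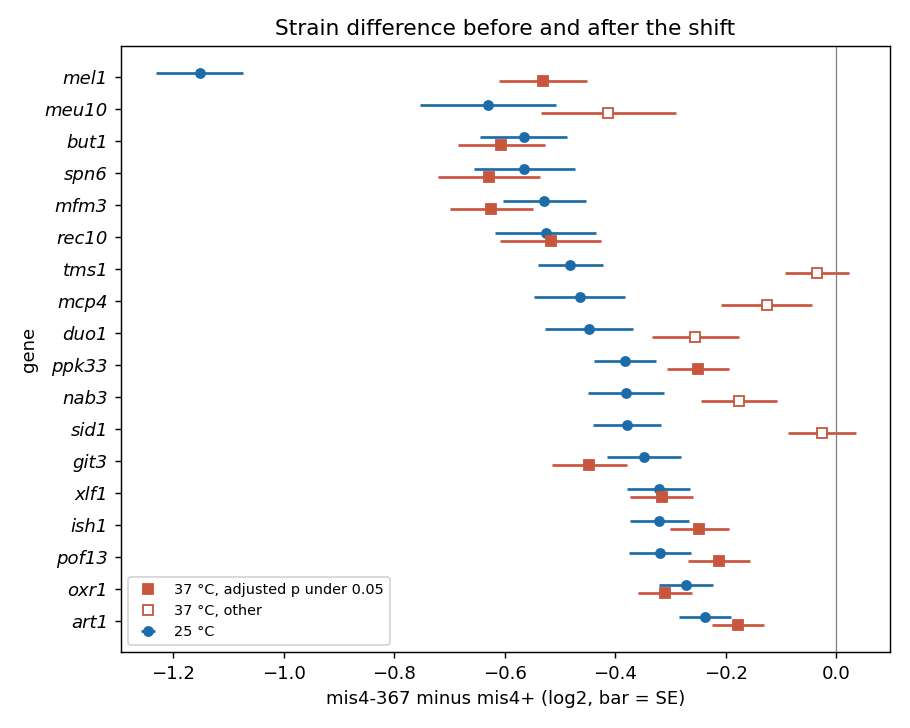
Strain difference (mis4-367 minus mis4+, log2) of the 18 genes at 25 °C (blue circles) and after 2 h at 37 °C (red squares, filled where adjusted p was under 0.05), with bars of 1 SE. The 37 °C squares are filled for 12 genes, and tms1, sid1 and mcp4 have squares nearest to 0.

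By gene order in the reference table the 18 genes were spread over all 3 chromosomes, 6 on chromosome I, 7 on II and 5 on III, where 1298, 1100 and 492 genes were measured. Of their 36 direct neighbours 22 were measured, and 0 of these passed in limma. The neighbours' changes ran from -0.30 (cbf12) to 0.03 (hba1), with 21 of 22 below 0 and a median of -0.062, beside 65% of all genes below 0. After quantile normalization 18 of the 22 were below 0, beside 1428 of all 2896 genes. The neighbours ssm4 (2.97) and rec7 (3.20) were below background in mis4+. On chromosome III the genes spn6, git3 and ppk33 lie within a run of 21 genes, a stretch singled out after the values had been seen. Of the 14 genes measured there these 3 fell, and rec7, which acts in meiotic break formation and is the neighbour of git3, was at -0.22 (adjusted p = 0.333) with a signal below background. Around mis4 itself 28 of 41 genes in a row were measured, 0 passed in limma, and their median was -0.044.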

How the data were processed

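Total RNA was read on 12 GeneChip arrays with probe sets for S. pombe and another yeast. It was prepared by hot phenol extraction and one-cycle biotin labelling, per the labels' protocols. The authors deposited 1 intensity per probe set and array, made by RMA per the submitters' processing notes; no version of RMA is named there. RMA corrects background, quantile-normalizes and summarises probe sets, so a broad shift in RNA would be flattened. Changes of dim probe sets can be understated by it. The size of either effect in these arrays was not tested. The deposited intensities are on a linear scale, up to 12169, and were put on the log2 scale as they stand.

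Among 10928 probe sets, 2914 carried the name of 1 gene in the reference table (assembly ASM294v3, used for names and gene order), 20 those of several and 5177 no name. Where 14 genes had several probe sets the brightest was used, which left 2896 of 5124 protein-coding genes; 110 symbols were updated. The background level, 3.42 (intensity 10.7), is the 95th percentile of the means of 2601 probe sets named for the other yeast. A further 213 probe sets were controls, and 3 had unmatched names.

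Comparisons used limma 3.58.1 in R 4.3.3 (lmFit, contrasts.fit, eBayes) on the means of 4 groups of 3 arrays, with no block, 8 residual degrees of freedom and Benjamini-Hochberg adjustment over 2896 genes. The procedure was tested on simulated data. The precision is limited by the number of arrays.

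Genes and lists were chosen with earlier results of these data known. Named are genes with adjusted p under 0.05 at 25 °C, the 5 highest and 5 lowest changes, cohesin and arrest genes, up to 3 members of smallest p per list, measured neighbours and cell type markers; rec8, moa1 and spn5 are among these. Gene lists got no set test. Promoter motifs and gene orientation were planned and not analysed here. Alternatives were other scalings, probe set rules, filters, priors, weights, array subsets and the replicate number as a block. Figures were drawn with matplotlib 3.10.9.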

Additional observations from a re-analysis of the deposited data

Results flagged for a closer look

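Probe sets without a gene name stayed outside the gene comparison, and some of them separated the strains at 25 °C. Of 5177 such probe sets fitted apart, 25 were lower and 11 higher in mis4-367 by limma (0.695%). Above the background level were 2203 of the 5177 and 32 of these 36. At least 2-fold differences were found for 8, and 15 of the 36 were also called in the same direction at 37 °C. The probe set 1769944_at read 5.45, 5.46 and 5.44 in mis4+ and 4.03, 4.12 and 3.87 in mis4-367, a change of -1.44 (adjusted p = 1.54e-08). The probe set 1772987_at was higher, at 7.11, 7.25 and 7.07 in mis4+ and 8.27, 8.36 and 8.45 in mis4-367, a change of 1.21 (adjusted p = 9.22e-07). A further probe set, 1769825_at, read 5.50, 5.56 and 5.56 in mis4+ and 6.69, 6.73 and 6.88 in mis4-367 (1.23, limma adjusted p = 3.43e-07). The largest difference, at 1778251_at, was -1.54 (adjusted p = 0.0491), and its groups overlapped. Of 2601 probe sets named for the other yeast, also fitted apart, 0 were lower and 4 higher by limma (0.154%).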

How the results depend on the processing

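Of the 18 genes lower at 25 °C, 12 kept their call in each of 8 settings other than quantile normalization and leaving out an array, and all 18 lay below 0 in each setting tried. Changed settings gave the following counts of genes lower and higher at 25 °C by limma: 140 and 14 with the 6 arrays at 25 °C alone, 3 and 0 after quantile normalization, 420 and 76 with array weights, and 97 and 5 with mis4+ replicate 3 at 37 °C left out, the last a setting chosen after the data were seen. Without 1 array at 25 °C the counts were 5 to 14 lower and 0 higher. Those of probe sets without a gene name were 25 lower and 11 higher, and those of the other yeast's probe sets 0 and 4. The test of the difference between temperatures called 2 genes with array weights (mug184 and tlh2), and 0 to 1 when 1 array was left out. Genes without overlap numbered 443 lower and 469 higher after re-centring, and 315 lower and 364 higher after quantile normalization. Re-centring, averaging probe sets, keeping the 2879 genes above background, adding 16 before log2 and a trended robust prior gave 19, 18, 18, 15 and 15 lower genes. The causes were not tested. Of 2524 values for the 158 named genes under other settings, 2309 kept their side of the threshold, 121 gained a call, 94 lost it and none changed sign with a call. Among the gene lists 27 medians of 528 moved by more than the spread between arrays, most often under quantile normalization.

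Same-numbered arrays did not deviate together, with correlations over genes of -0.38 to 0.23 in 18 pairs. Of these 4 were over 0.1, so the numbers give no pairing. Differently numbered arrays had correlations of -0.23 to 0.40. The highest was between mis4+ replicate 1 and mis4-367 replicate 3, both at 25 °C. Variation shared by differently numbered arrays was not modelled. With the replicate number as a block 26 genes were lower and 0 higher, 17 of them among the 18; meu10 was lost.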

Other observations

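Among 115 measured genes with mug, meu or mcp names, most of them named for their induction in meiosis, 2 fell at 25 °C (meu10 and mcp4), and 93 lay below 0 with a median of -0.11. Of these genes 83 were in the dimmest of the 4 level groups, and after quantile normalization 65 lay below 0 with a median of -0.017. The gene mug165 came nearest to the threshold among the others, at 7.08, 7.08 and 7.09 in mis4+ and 6.88, 6.83 and 6.89 in mis4-367 (-0.22, limma adjusted p = 0.0864).

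Of 33 measured genes of DNA replication and repair 0 passed in limma at 25 °C and 3 had an unadjusted p under 0.05, all lower, with a median of -0.054 (-0.013 after quantile normalization). The replication initiation gene sld3 was at -0.27 (adjusted p = 0.18). Of 27 measured cell wall genes 0 passed in limma and 4 had an unadjusted p under 0.05, all lower, with a median of -0.063. Of 25 proteasome genes 0 passed in limma and 0 had an unadjusted p under 0.05, with a median of -0.002 (0.007 after quantile normalization). Mitochondrial ribosomal protein genes, 29 measured, had 0 that passed in limma and 0 with an unadjusted p under 0.05. Of these 18 lay below 0, with a median of -0.015 (13 and 0.013 after quantile normalization).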
